A study of Arabidopsis thaliana with 6 samples.

Results

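Class III peroxidases are a large plant family of secreted haem enzymes, and 60 Arabidopsis thaliana loci of the family were taken as members from a given list of loci. A member was measured when 1 probe set on the array was assigned to that gene alone, which held for 47 of the 60. Of the 13 others, 7 lay on probe sets shared by several genes and 6 had no probe set named here, and none of the 13 was used. Each of the 47 had exactly 1 single-gene probe set, among 13355 genes with one in the whole series. The reference gene table gives a peroxidase name for 5 of the 47, and the rest carry only their locus, so membership rests on the given list.

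RNA from light-grown seedlings was hybridised to 6 Affymetrix ATH1 arrays, 3 from Col-0 wild type and 3 from a VFB triple mutant. VFB genes form a small family of F-box genes, and which of them carry mutations, and which alleles, is not given in the sources used here. The stated ages conflict: every description says 10 days, while for the 3 mutant samples the source name and the protocol of extraction say 5 days, so genotype and age cannot be told apart if the mutant seedlings were younger. The extract protocol of mutant replicate 3 names No-0 wild type seedlings, and that sample was kept in the mutant group by its title. Separate cultures or plants are not recorded for the replicates, so the p-values cover only the spread seen among these arrays, which may be technical. Whole seedlings were extracted, so fewer cells of a type and less RNA per cell cannot be told apart.

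Class III peroxidases act in the cell wall, where they use hydrogen peroxide to oxidise phenolics and wall proteins such as extensins. That reaction stiffens walls and polymerises lignin, while another reaction of the same enzymes makes reactive oxygen species that loosen walls. Many members of the family are known from roots and root hairs, and others are induced by wounding, pathogens or cell wall damage. The members were sorted by such background knowledge into root hair, other root, stress-induced, lignin and vascular, anther and other lists, and the first 2 lists together are called root-expressed.

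Values are MAS5 signals, a summary of probe intensities on a linear scale, given per array or as mean ± SD (n = 3 per group). Changes are differences of log2(signal + 16), mutant minus wild type, with their standard error. A member was called when its limma p, adjusted by Benjamini-Hochberg over all 13647 probe sets bright enough to test, was below 0.05, and "rose" and "fell" are used only of called members. The arrays had median signals of 192.85 to 204.2 in wild type and 184.55 to 189.1 in the mutant, so the groups were apart in their medians. Arrays correlated at 0.9779 to 0.9852 within the wild type, 0.9779 to 0.9803 within the mutant and 0.9405 to 0.9563 between the groups, across probe sets, which are not independent replicates. The 3' to 5' ratio of the actin control, a measure of RNA integrity, averaged 2.80 ± 0.231 for the wild type arrays and 3.40 ± 0.188 for the mutant ones (exact two-sided permutation p = 0.1, n = 3 per group, the smallest that 3 against 3 allows). The same ratio was 1.13 ± 0.0577 and 1.13 ± 0.0836 for GAPDH (exact permutation p = 1) and 1.45 ± 0.101 and 1.64 ± 0.227 for ubiquitin (exact permutation p = 0.3), so the groups were apart in actin and overlapped in GAPDH and ubiquitin. An older actin control set on the arrays gave 19.0 ± 6.52 for wild type and 25.8 ± 3.25 for the mutant (exact permutation p = 0.1). There the groups were apart too, by a narrow margin, from a highest wild type ratio of 23.7 to a lowest mutant ratio of 23.9. The part of RNA integrity in the results was not tested.

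In the mutant 7 of 9 tested root-expressed peroxidases fell, and 2 of 4 tested stress-induced ones rose, AT5G64120 and AT5G39580. The size of that rise depended on wild type replicate 3, with log2 changes of 2.05 and 2.09 with all arrays and 1.51 and 1.45 without that array, and under a robust variance model neither was called (limma, adjusted p = 0.0626 and 0.0946). Of the 47 members, 24 were bright enough to test, and 11 of these fell, 3 rose and 10 were not called. Over all tested probe sets 10.4% were called lower, 8.17% higher and 18.6% either way. The median change was -0.44 over the 24 tested members and -0.05 over all tested probe sets. A member that is bright in only 1 group can pass the brightness filter through that group, so these counts describe the bright members and not the family. Without any filter all 47 could be fitted, and then 11 were called lower and 2 higher, among the 11 the very dim AT3G49960, against 5.06% of all probe sets called lower, 4.26% called higher and 9.32% either way.

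The values themselves, with no test and no filter, were set beside the same background. In 20 of the 47 members every mutant array lay below every wild type array (42.6%, against 16.1% of all 22746 gene probe sets). In 5 of the 47 every mutant array lay above every wild type array (10.6%, against 11.8% of all gene probe sets). In the other 22 members the groups overlapped. Among the 23 members under the filter alone, 6 had all mutant arrays below (against 8.53% of probe sets under the filter) and 1 had all of them above (against 7.13%). The share above the background was thus the downward one. The summed signal of the 47 went the other way, from 11969.3 to 14827.4 in wild type and from 16307.6 to 19048.1 in the mutant. AT5G64120 alone gave 788.5 to 2699.7 of the sum in wild type and 6017.2 to 7885.6 in the mutant.

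**Figure D1:**
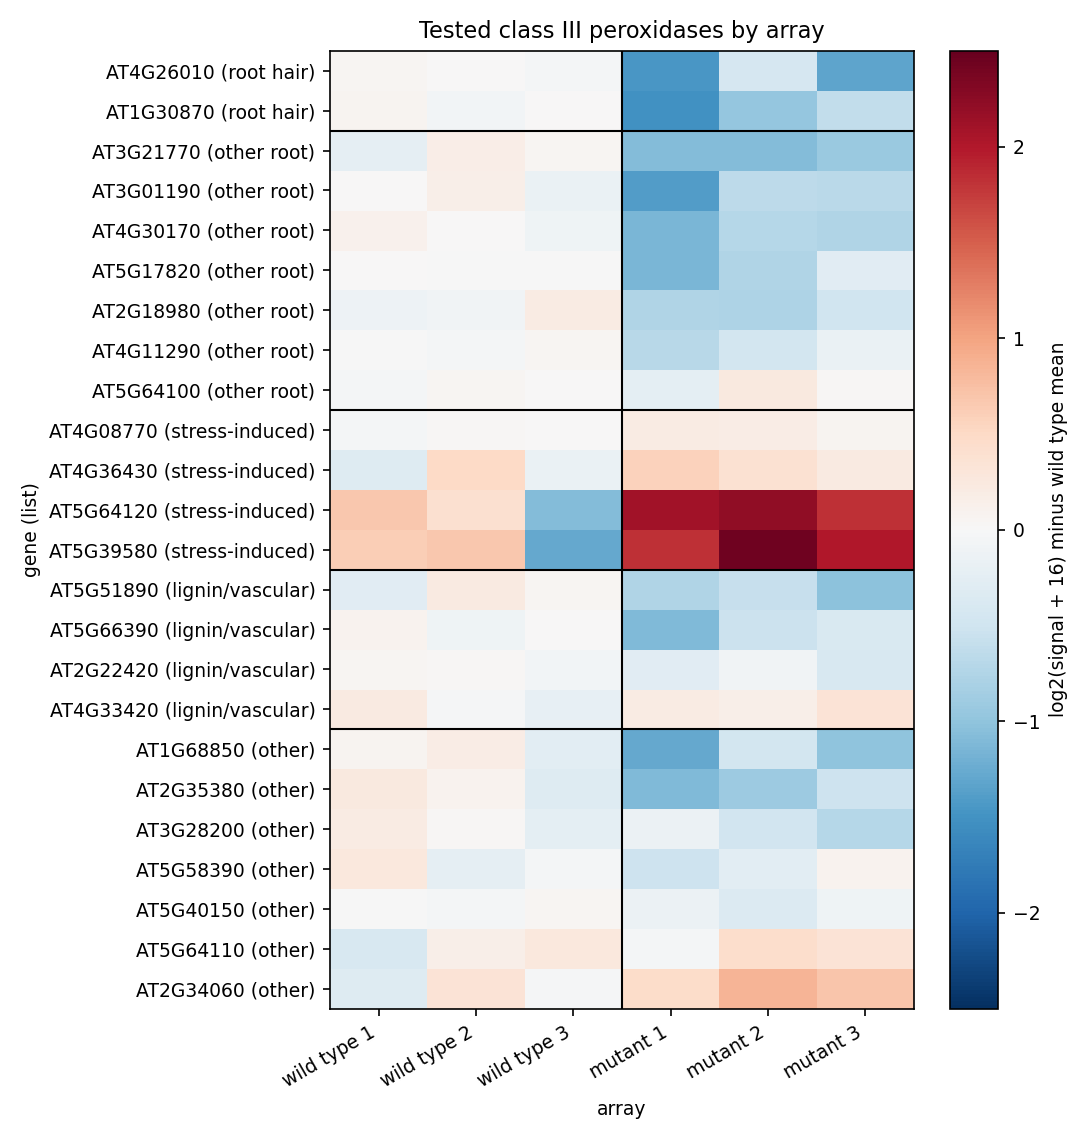
Each row is 1 of the 24 tested peroxidases and each column 1 array, and colour shows log2(signal + 16) minus the wild type mean of that gene. The root hair and other root rows are blue in the mutant columns except AT5G64100, and the 2 dark red rows are AT5G64120 and AT5G39580, which are also low in wild type 3.

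Of 7 root hair loci 4 had a probe set and 2 were bright enough to test, and both fell. Among all tested probe sets 10.4% were called lower. AT4G26010, a peroxidase of root hair walls, had signals of 191.0, 184.9 and 177.8 in wild type replicates 1 to 3 and of 56.8, 133.2 and 64.2 in the mutant ones. Mutant replicate 2 stood above the other mutant arrays, and still below all of the wild type. The change was -1.07 ± 0.253 (limma, adjusted p = 0.0112), from a mean of 184.6 ± 6.61 to 84.7 ± 42.1. AT1G30870 had 205.2, 186.3 and 196.9 in wild type and 58.2, 92.3 and 123.1 in the mutant. Its groups did not overlap, and it changed by -1.03 ± 0.226 (limma, adjusted p = 0.00733). In both genes the mutant arrays spread more widely than the wild type arrays, with SDs of 42.1 against 6.61 and 32.5 against 9.47. AT4G26010 and AT1G30870, at the 41.9th and 43.3rd percentiles of mean log2 value, lay just above the filter, set at the 40th. Both passed it through their wild type signals, so being tested and falling are not independent here. In the fit without a filter both were still called lower (limma, adjusted p = 0.0369 and 0.0265).

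The other root hair members with a probe set were too dim to test. AT3G49960 had 75.1, 84.9 and 32.7 in wild type and 2.4, 2.7 and 27.6 in the mutant, so the groups did not overlap, though wild type replicate 3 and mutant replicate 3 were only 32.7 and 27.6. In the fit without a filter it was called lower (limma, adjusted p = 0.0362), and also with an offset of 1 (0.0417) or 64 (0.0390), alternatives chosen after seeing the data. The size of its change moved with the offset, at -3.09, -1.63 and -0.77 with offsets of 1, 16 and 64, and 2 of its mutant signals lay far under 16. AT1G34510 lay at 10.7 to 35.7 in wild type and 2.9 to 23.2 in the mutant, with overlap. AT1G05240, AT5G22410 and AT5G67400 had no single-gene probe set and were not analysed here.

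Of 12 other root loci 9 had a probe set and 7 were tested, of which 5 fell. Here too the share called lower over all tested probe sets was 10.4%. AT3G21770 had the smallest adjusted p of all members. It gave 855.0, 1123.8 and 1036.4 in wild type and 461.8, 464.3 and 520.9 in the mutant, a change of -1.03 ± 0.129 (limma, adjusted p = 0.000186). The mutant arrays lay close together, all well under the lowest wild type array. AT4G30170 had 870.2, 817.8 and 749.7 in wild type against 358.7, 487.0 and 478.3, a change of -0.87 ± 0.139 (limma, adjusted p = 0.00108). AT3G01190 had 377.5, 416.8 and 329.9 against 130.9, 231.5 and 227.1, a change of -0.91 ± 0.200 (limma, adjusted p = 0.00733). In both, the groups were apart and mutant replicate 1 was the lowest array.

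AT2G18980 gave 690.4, 707.0 and 864.9 in wild type and 441.9, 433.7 and 528.5 in the mutant, and changed by -0.67 ± 0.134 (limma, adjusted p = 0.00427). AT5G17820 was nearly constant in wild type, at 459.8, 456.2 and 454.0, and lay at 196.8, 266.5 and 371.0 in the mutant. Its change was -0.73 ± 0.188 (limma, adjusted p = 0.0172). The adjusted p was 0.0573 when wild type replicate 2 was left out, 0.0518 when mutant replicate 1 was and 0.0533 when mutant replicate 2 was, so the call was lost in each case. AT4G11290 had 168.4, 162.0 and 176.1 against 97.8, 118.7 and 148.5, with no overlap, but its change of -0.44 ± 0.187 was not called (limma, adjusted p = 0.126). AT5G64100 was the other tested member that was not called, with 899.5, 955.9 and 933.2 in wild type and 782.3, 1103.7 and 948.3 in the mutant. Its groups overlapped and its change was 0.01 ± 0.131 (limma, adjusted p = 0.97), with a direction that turned without wild type replicate 1 (-0.01) or mutant replicate 2 (-0.11). Of the dim members, AT5G15180 lay at 58.5 to 99.4 in wild type and 35.3 to 50.8 in the mutant, and AT3G03670 lay at or below 50.1 in all arrays, with overlap.

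Taking both root lists, 7 of 9 tested members fell and 0 rose in limma (0 also at an unadjusted p below 0.05, 0 in the fit without a filter), with a median change of -0.87. The 2 root hair members among the 7 passed the filter through their wild type signals. Over all tested probe sets 10.4% were called lower and 8.17% higher. Of all 13 with a probe set, 10 had every mutant array below every wild type array and 0 had the reverse. Among all gene probe sets these shares were 16.1% and 11.8%. The summed signal of the 13 ran from 4886.6 to 5222.2 in wild type and from 2674.2 to 3504.7 in the mutant. The mutant arrays were not alike: the median deviation of the 9 tested members from their wild type mean was -1.14 in mutant replicate 1, -0.72 in replicate 2 and -0.61 in replicate 3. Mutant replicate 1 was the lowest mutant array in 8 of the 9. Without it the median change was -0.67 and 6 were called lower.

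Few root markers could be set beside these values. PYK10, a beta-glucosidase abundant in roots, was the 1 of 16 root tissue markers with a probe set named here, at 12618.1 to 13438.8 in wild type and 12387.1 to 17028.0 in the mutant. Its change of 0.20 ± 0.118 was not called (limma, adjusted p = 0.274), and its groups overlapped. This is a single marker, and the share of root tissue was not tested from it. Of 15 root hair genes outside the family 3 had a probe set, all too dim to test, with a summed signal of 166.9 to 213.9 in wild type and 104.1 to 210.5 in the mutant. Among them EXPA18, an expansin of root hairs, had 111.2, 114.7 and 120.0 in wild type and 48.6, 107.0 and 119.4 in the mutant. It was low in mutant replicate 1, the array in which most root peroxidases were lowest, and near the wild type level in the others. EXPA7, the related root hair expansin, had 62.5, 37.7 and 75.0 in wild type and 49.5, 4.9 and 35.0 in the mutant. Unlike EXPA18 it was highest of the mutant arrays in replicate 1 and lowest in replicate 2. The remaining gene, AT5G49180, went the other way in its means, 13.9 in wild type and 37.6 in the mutant. Its arrays lay at 8.4 to 18.9 in wild type and 6.0 to 56.1 in the mutant, where replicate 1 was the lowest. Both genes overlapped between the groups. No marker with a probe set was listed at 0.

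The 3 green tissue markers with a probe set, of 16, had a summed signal of 49973.5 to 54653.7 in wild type and 59809.5 to 65995.9 in the mutant. PRK, an enzyme of the Calvin cycle, rose by 0.43 ± 0.109 (limma, adjusted p = 0.0166), while RCA (0.28 ± 0.104) and LHCB4.1 (0.19 ± 0.107) were not called. The part of a different share of root and shoot tissue in the fall of the root peroxidases was not tested beyond these values.

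Of 10 stress-induced loci 8 had a probe set and 4 were tested, of which 2 rose and 0 fell in limma (0 also at an unadjusted p below 0.05, 0 in the fit without a filter). The share called higher over all tested probe sets was 8.17%. AT5G64120 encodes PRX71, which is known to restrict cell expansion and to respond to cell wall damage. Its signal was 2699.7, 2225.1 and 788.5 in wild type and 7221.6, 7885.6 and 6017.2 in the mutant. Wild type replicate 3 was low, and the lowest mutant array was above the highest wild type array by more than the whole wild type range. The change was 2.05 ± 0.327 (limma, adjusted p = 0.00107), or 4.13-fold.

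AT5G39580, a peroxidase induced by fungal infection, followed the same arrays. It had 549.2, 573.4 and 135.3 in wild type and 1299.5, 1970.5 and 1473.3 in the mutant, a change of 2.09 ± 0.392 (limma, adjusted p = 0.00283), or 4.26-fold. Wild type replicate 3 was again far below the other 2 wild type arrays, and the groups did not overlap. Without that array the changes were 1.51 ± 0.139 for AT5G64120 and 1.45 ± 0.164 for AT5G39580, smaller but with smaller errors (limma, adjusted p = 3.11e-05 and 9.85e-05).

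The other tested members of the stress list were not called. Prx37 (AT4G08770), known from the vasculature, had 211.9, 227.3 and 223.6 in wild type and 257.2, 254.5 and 233.8 in the mutant. Its mutant arrays all lay above wild type, by a change of 0.16 ± 0.142 that was not called (limma, adjusted p = 0.49). AT4G36430 had 559.0, 995.9 and 628.7 in wild type and 1057.9, 920.6 and 826.2 in the mutant, with overlap through wild type replicate 2. Its change was 0.39 ± 0.184 (limma, adjusted p = 0.168), and 0.64 ± 0.148 without that array (limma, adjusted p = 0.0175).

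The 4 stress members too dim to test did not share a direction. AT4G08780 lay at 115.1 to 146.5 in wild type and 77.1 to 98.3 in the mutant, with no overlap, and AT1G14550 at 24.3 to 28.4 and 22.5 to 46.4. AT5G06730 lay at 36.2 to 71.1 and 19.9 to 69.8, and AT5G19880 at 36.7 or below in all arrays. The median change was 1.22 over the 4 tested members and 0.21 over all 8 in the fit without a filter. The rise was thus that of 2 bright genes and not of the list. AT1G14540 and AT2G18150 had no single-gene probe set.

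Of 14 defence and stress markers outside the family 4 had a probe set, with a summed signal of 657.3 to 967.8 in wild type and 1905.3 to 4937.0 in the mutant. THI2.1, a thionin, made up most of the sum in mutant replicates 1 and 3. Without it the sum of the other 3 ran from 621.3 to 922.3 in wild type and from 1077.0 to 1677.3 in the mutant. The stress-induced repressor STZ rose by 1.26 ± 0.233 (limma, adjusted p = 0.00263) and was also lowest in wild type replicate 3, at 200.6 against 373.3 and 463.1. THI2.1 rose by 4.58 ± 0.733 (limma, adjusted p = 0.00107), whereas WRKY53 (0.44 ± 0.218) and PDF1.2 (0.22 ± 0.310) overlapped between the groups and were not called. Within wild type THI2.1 was lowest in replicate 3 too, at 36.0 against 45.5 and 47.9. WRKY53 and PDF1.2 were instead lowest in wild type replicate 2, at 117.5 and 168.8. In mutant replicate 2 THI2.1 was at 228.0, far below 3860.0 and 2964.4 in the other mutant arrays, while AT5G64120 and AT5G39580 were highest there.

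**Figure D2:**
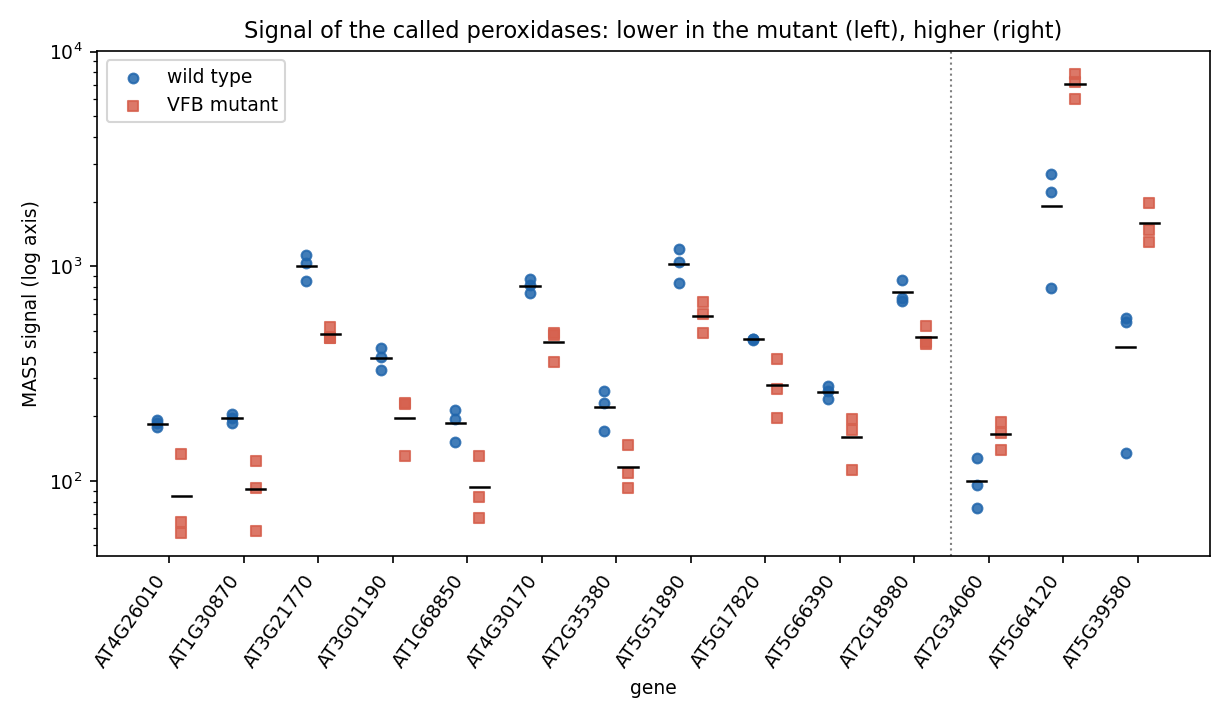
Points are the MAS5 signals of the 14 called peroxidases in each array on a log axis, circles for wild type and squares for the VFB mutant, and black lines are group means. The 11 genes left of the dotted line fell and the 3 right of it rose, and 1 wild type array lies far below the others in AT5G64120 (788.5) and AT5G39580 (135.3).

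Of 8 lignin and vascular loci 7 had a probe set and 4 were tested, of which 2 fell and 0 rose in limma (0 also at an unadjusted p below 0.05, 0 in the fit without a filter). The share called lower over all tested probe sets was 10.4%. AT5G51890, a peroxidase linked to vessel lignification, had 835.8, 1198.0 and 1046.8 in wild type and 597.5, 677.6 and 487.9 in the mutant. The groups did not overlap, and the change was -0.79 ± 0.155 (limma, adjusted p = 0.0039). AT5G66390 encodes PRX72, an enzyme of lignin synthesis in the stem, and had 277.1, 240.7 and 260.9 in wild type against 112.3, 172.8 and 194.2.

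PRX72 fell by 0.68 on the log2 scale with a standard error of 0.193 (limma, adjusted p = 0.0283). This call was less firm. Quantile normalization gave an adjusted p = 0.0579, median centring 0.0561 and the fit with no filter 0.0678. Leaving out any wild type array also ended it (replicate 1 0.0868, replicate 2 0.062, replicate 3 0.0708), as did leaving out mutant replicate 1 (0.0851).

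The other vascular members were not called or were too dim to test. AT2G22420 had 375.3, 370.4 and 348.6 in wild type and 295.8, 340.3 and 271.0 in the mutant, apart but not called (-0.26 ± 0.137, limma, adjusted p = 0.212). AT4G33420 lay at 467.1 to 631.1 and 599.6 to 686.5, with a change of 0.23 ± 0.134 (limma, adjusted p = 0.259). Too dim to test were PRX25 (AT2G41480), an enzyme of stem lignification, at 87.4, 129.3 and 114.9 against 64.6, 65.4 and 68.0, and PRX52 (AT5G05340), an enzyme of lignin synthesis in fibres, at 41.4, 28.4 and 15.0 against 65.7, 54.6 and 48.0. Neither gene's groups overlapped, and they lay in opposite directions. AT2G39040 lay at or below 49.1 in all arrays.

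Both anther loci, which are known to act in the tapetum of the anther, were dim in these seedlings. AT1G44970 lay just under the brightness filter, at the 39.9th percentile of mean log2 value where the filter was set at the 40th. It had 155.0, 151.9 and 126.1 in wild type and 66.8, 99.0 and 76.9 in the mutant, with no overlap, and -0.74 ± 0.220 in the fit without a filter (limma, adjusted p = 0.0654). AT4G08780, at the 39.7th percentile, also lay just under it, and AT4G26010, at the 41.9th, was the tested member nearest above it. AT4G16270 lay at 31.9 to 58.1 in wild type and 2.7 to 49.9 in the mutant, with overlap.

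Of the 21 remaining loci 17 had a probe set and 7 were tested, of which 2 fell and 1 rose. The shares over all tested probe sets were 10.4% lower and 8.17% higher. AT1G68850 had 193.5, 213.0 and 151.8 in wild type and 67.0, 130.6 and 83.7 in the mutant, a change of -0.91 ± 0.231 (limma, adjusted p = 0.0162). AT2G35380 had 261.3, 230.5 and 169.9 against 92.3, 108.1 and 147.1, a change of -0.85 ± 0.210 (limma, adjusted p = 0.0146). In both the groups were apart and mutant replicate 1 was the lowest. AT2G34060 had 74.5, 127.9 and 95.7 against 138.9, 188.4 and 167.8, a change of 0.67 ± 0.214 (limma, adjusted p = 0.0468). Its mutant arrays lay above all wild type arrays by a small margin. AT2G34060, at the 42.5th percentile of mean log2 value, passed the filter through its mutant signals. AT1G68850, at the 43.0th, passed it through its wild type signals.

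These 3 calls depended on single arrays. For AT1G68850 the adjusted p rose to 0.0536 and 0.0767 when wild type replicate 1 or 2 was left out, and to 0.0549 when mutant replicate 1 was. AT2G35380 missed the threshold when wild type replicate 1 (0.0637) or 2 (0.0615) was left out. AT2G34060 missed it when wild type replicate 1 (0.148) or 3 (0.103) was left out, when mutant replicate 2 (0.155) or 3 (0.106) was, and with no filter (0.109). The other 4 tested members were not called: AT3G28200 (-0.44 ± 0.159), AT5G40150 (-0.20 ± 0.142), AT5G58390 (-0.23 ± 0.179) and AT5G64110 (0.25 ± 0.197). With the replicate number as a block AT3G28200 was called (limma, adjusted p = 0.0416). Of the 10 dim loci of this list, AT5G14130 had no overlap, at 65.0 to 96.0 in wild type and 40.2 to 44.5 in the mutant. The other 9 overlapped and had signals of 65.1 or below in all arrays.

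**Figure D3:**
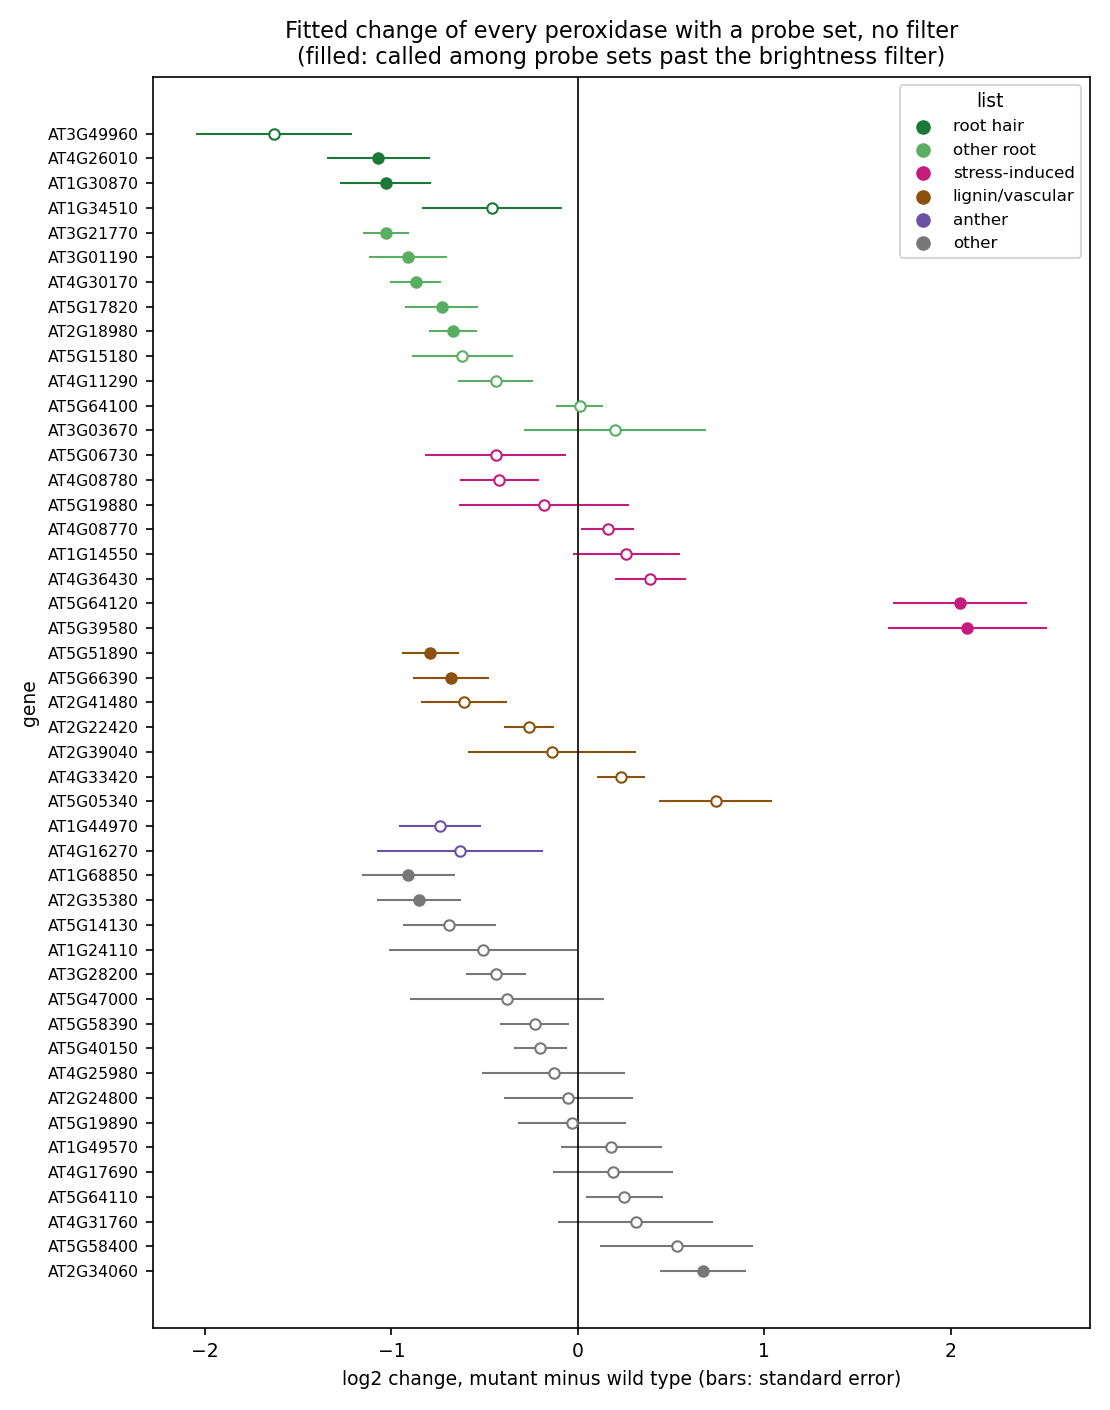
Points are the fitted log2 changes, mutant minus wild type, of all 47 peroxidases with a probe set in the fit without a filter, with standard errors as bars and colours for the lists. Filled points are the 14 members called in the other fit, with the brightness filter, where AT3G49960 was not tested, and the fit shown does not call AT5G66390 or AT2G34060. The root lists lie mostly left of 0, and AT5G64120 and AT5G39580 near 2 on the right.

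Peroxidase genes often stand in tandem, and the reference gene table puts 12 pairs of members next to each other or within 2 genes. In 7 of these pairs both genes had a probe set, and in 3 both were tested. All 3 came from a row of adjacent genes on which the changes were uneven. AT5G64100 changed by 0.01, AT5G64110 by 0.25 and AT5G64120 by 2.05. AT5G64110 had 185.9, 280.8 and 305.2 in wild type and 242.6, 349.6 and 323.2 in the mutant, with overlap, so only the outermost gene of the row was called.

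The difference between neighbours was tested over the arrays, on pairs chosen after their values were seen. The change of AT5G64120 exceeded that of AT5G64100 by 2.04 ± 0.574 (exact two-sided permutation p = 0.1, n = 3 each) and that of AT5G64110 by 1.80 ± 0.736 (exact two-sided permutation p = 0.1). AT4G08780 differed from Prx37 by -0.58 ± 0.177 and AT4G26010 from AT4G25980 by -0.94 ± 0.528 (exact permutation p = 0.1 for each). Of these genes AT4G08780 and AT4G25980 were under the brightness filter, and AT4G25980 had signals of only 9.4 to 50.0. The remaining 3 pairs gave exact permutation p from 0.3 to 0.9. Adjusted over the 7 pairs the lowest p was 0.175, and 0.1 is the smallest that 3 against 3 allows. Probe sets of all 47 members have the plain suffix that the array's maker gives to sets designed for 1 transcript, and signal shared between close copies was not tested.

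Genes that supply or use the peroxidase reaction were sparsely covered. Of 10 NADPH oxidases, which make the superoxide that feeds hydrogen peroxide to the wall, 3 had a probe set and all were too dim to test. Of 17 antioxidant enzymes 2 were tested and neither was called, SAPX (0.02 ± 0.152) and TAPX (-0.28 ± 0.106), both chloroplast ascorbate peroxidases of another family. Of 20 extensins and related LRX proteins, which class III peroxidases crosslink, 9 had a probe set and 5 were tested, of which 1 fell. Among all tested probe sets 10.4% were called lower, so 1 of 5 says little about the list. HRGP1, an extensin-like wall glycoprotein, had 391.8, 306.6 and 322.3 in wild type and 227.0, 222.5 and 217.8 in the mutant, a change of -0.57 ± 0.145 (limma, adjusted p = 0.0163). The groups did not overlap. Its probe set is among the 4 of 9 on this list, and 3 of 5 tested, with the x suffix of sets that may hybridise with related transcripts, so its signal may not be that of HRGP1 alone. The median of the 5 tested extensins was -0.33, against -0.05 over all tested probe sets. Of 18 monolignol enzymes and laccases HCT, which makes lignin precursors, was the 1 with a probe set (0.11 ± 0.105).

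**Figure D4:**
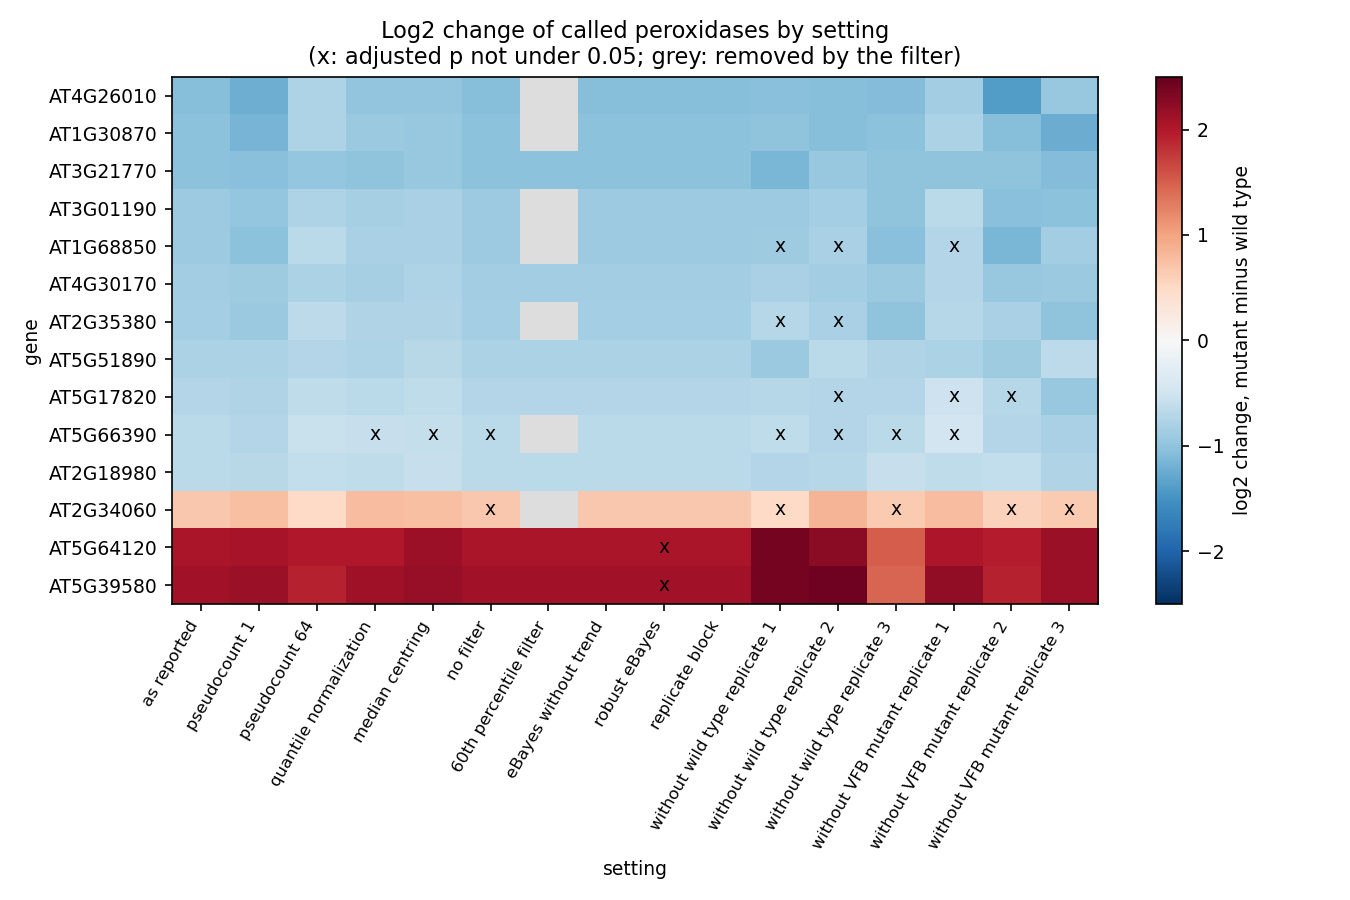
Rows are the 14 called peroxidases, columns the fit as reported and the 15 alternative settings, and colour the log2 change, mutant minus wild type. A cross marks an adjusted p that was not under 0.05 and grey a gene removed by the filter, and 7 of the 14 rows carry no cross.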

How the data were processed

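Total RNA of seedlings (about 80 mg of tissue per sample, and 6 µg of RNA labelled, per the labels' protocols) was measured on 6 arrays. The authors deposited linear probe set intensities that MAS5 produced, per the submitters' processing notes. No MAS5 version or setting is given in the sources used here. The trimmed mean, after removing 2% at each end, was 500 on every array as deposited, so a single factor had been applied per array. The deposited intensities were analysed on the log2(value + 16) scale, which understates changes of dim genes. Groups came from the titles. Of 22810 probe sets, 64 controls were left out, and those above the 40th percentile of mean log2 value were tested (13647). Gene names came from the platform annotation, updated by Entrez number against RefSeq (TAIR10.1). A single gene was assigned to 13513 probe sets, several to 503, and no gene to 8730.

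The mutant was compared with wild type by limma 3.58.1 (lmFit, eBayes with trend; R 4.3.3) with Benjamini-Hochberg adjustment, after the fit was tested on simulated data. Neighbouring genes and RNA ratios were compared with exact two-sided permutation tests in scipy 1.17.1. Precision is limited by having 3 arrays in a group. Members and lists were chosen with earlier results of these data known, and lists are described by counts and medians with no test. Genes were named by a rule: all tested root and stress members, called members of other lists, and dim members with a group ratio over 2 and no overlap. The remaining dim members were added to account for the family. Alternatives were other offsets (1 and 64), scalings, filters and variance models, a replicate block, and leaving out each array. Promoters and proteins were not analysed here.

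Same-numbered arrays did not deviate together (correlations of -0.196, 0.016 and -0.167 across tested probe sets), so replicate numbers were not taken to pair the samples. Figures were drawn with matplotlib 3.10.9.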

Additional observations from a re-analysis of the deposited data

How the results depend on the processing

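The direction of all 14 called members held under each of the 15 alternatives that tested them. Of the 14 calls, 7 held under every alternative that tested the gene: AT1G30870, AT4G26010, AT2G18980, AT3G01190, AT3G21770, AT4G30170 and AT5G51890. The 60th percentile filter left out AT1G30870, AT4G26010 and AT3G01190, so each of these was tested under 14. The uncalled AT5G64100 ran from -0.11 to 0.14 when 1 array was left out, below 0 without wild type replicate 1 (-0.01) and without mutant replicate 2 (-0.11). With the 60th percentile filter, which tests fewer members, 5 peroxidases and 4 root-expressed ones were called lower, and 1006 of all probe sets. No called member that was still tested lost its call. The medians were -0.26 for all members tested there and 2.05 for the stress-induced ones, whose median without a filter was 0.21. Robust eBayes called 1 peroxidase higher and 0 stress-induced ones (2 at an unadjusted p under 0.05, 2 by eBayes without trend), and the cause was not tested. Leaving out 1 array at a time gave 7 to 11 peroxidases called lower, the lowest without wild type replicate 2, 878 to 1290 of all probe sets called lower (1426 with all arrays), and a root-expressed median of -0.94 to -0.67. Calls were higher in the mutant for 43.9% of the 2541 called probe sets as deposited and 61.8% after median centring, which moved the median of all tested probe sets by 0.0905. With the replicate number as a block, 12 peroxidases were called lower and 3 higher, including all 14, and 1988 probe sets in all. No member had a second probe set, so that alternative was not run.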
